A study of Mus musculus with 18 samples.

Results

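The genes described here encode the classical and non-classical major histocompatibility complex (MHC) molecules of the mouse and the proteins that load and regulate them. Members were taken from the deposited array table as every row with a gene symbol beginning with H2- or equal to B2m, Cd74, Ciita, Nlrc5, Tap1, Tap2, Tapbp, Erap1 or Cd1d1. This gave 55 gene symbols on 69 transcript clusters, of 28856 transcript clusters in all. A transcript cluster is a group of probes read as 1 gene level signal. A symbol with several clusters is represented by the cluster whose signal, averaged over all 18 arrays, was greatest, which left 46 clusters, some of them shared by near-identical H2 genes. H2-Ke2 and H2-Ke6 are members by their symbols only, since they have no known part in antigen presentation.

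Endothelial cells, podocytes and mesangial cells were sorted by FACS from the glomeruli of mice at 5 weeks of age and profiled on Affymetrix Mouse Gene ST arrays, with 3 arrays for each of 6 groups. The mutant groups, labelled CD2AP-/-, carried the Cd2ap allele of the strain B6.129X1-Cd2ap tm1Shaw/J, a model of focal segmental glomerulosclerosis. The endothelial and podocyte controls were titled wild type, and the mesangial controls were titled control. All mice carried a GFP reporter for the cell type sorted, under Tie2 for endothelial cells and Meis1 for mesangial cells. Tie2 and Meis1 are also known to be active in some blood-derived cells, so a GFP gate alone does not exclude these. The sample records also call the mesangial controls wild type. Their titles read control, however, and the heading of their columns reads +:- where those of the other controls read +|+ or +l+. They are therefore called mesangial controls here. The series record speaks of biological triplicates, but the number of mice behind an array is not given in the sources used here, so the spread between arrays may be partly technical. Arrays are called A, B and C within a group by column order.

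Class I molecules pair a heavy chain with B2m. The heavy chain is encoded by H2-K1, H2-D1 and H2-L for the classical and by H2-Q, H2-T and H2-M genes for the non-classical forms. The classical forms show peptides from inside the cell to CD8+ T cells. Peptides cut by the immunoproteasome are pumped into the endoplasmic reticulum by Tap1 and Tap2, trimmed by Erap1 and loaded with the help of tapasin, the product of Tapbp. Class II molecules, built from the H2-Aa and H2-Ab1 or the H2-Ea and H2-Eb1 chains, travel with the invariant chain Cd74 and exchange peptides with the help of H2-DM, which H2-O restrains. Nlrc5 is known as the coactivator of class I genes and Ciita as that of class II genes. Interferon gamma raises both classes, in part through Irf1. Endothelial cells are known to carry class I at rest and to gain class II under interferon.

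The sequences upstream of the start sites of these genes are shown first, because many of the members moved together in endothelium. RefSeq windows of GRCm38.p6 were available for 34 of the 55 symbols and gave 37 windows. The 250 bases before each start were searched on both strands for the interferon-stimulated response element core GAAANNGAA, for the NF-kappa-B sequence GGGGATTCC and for the Y box CTGATTGG. The response element core lay in 4 of the 37 member windows and in 7.13% of all 32851 RefSeq windows. The NF-kappa-B sequence lay in 5 member windows and in 0.213% of all windows, and the Y box in 18 member windows and in 3.83% of all windows. The member genes are paralogs in large part, so their windows are not independent. Printed below are 7 windows that held a motif, of class I heavy chains, the light chain, a transporter subunit and a class II chain. The clusters of H2-D1 and B2m passed neither the screen nor the adjusted test described below in any cell type. All 7 windows lay outside the transcribed span that RefSeq gives the gene. Each is read 5′ to 3′ on the strand of its gene and ends at the base before the start, and capitals mark the motifs found on either strand.
H2-D1, chr17:35262844-35263093, plus strand: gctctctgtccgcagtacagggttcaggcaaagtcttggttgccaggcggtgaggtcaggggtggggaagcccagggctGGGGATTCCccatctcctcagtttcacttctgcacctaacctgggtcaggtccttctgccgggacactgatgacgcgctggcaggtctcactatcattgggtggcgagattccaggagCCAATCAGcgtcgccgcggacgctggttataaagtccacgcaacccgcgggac
H2-Q6, chr17:35424600-35424849, plus strand: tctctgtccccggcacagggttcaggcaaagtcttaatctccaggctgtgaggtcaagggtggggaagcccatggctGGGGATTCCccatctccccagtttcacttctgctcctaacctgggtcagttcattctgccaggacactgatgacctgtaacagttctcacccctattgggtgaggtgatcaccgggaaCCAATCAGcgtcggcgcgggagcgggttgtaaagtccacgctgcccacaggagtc
H2-T23, chr17:36032702-36032951, minus strand: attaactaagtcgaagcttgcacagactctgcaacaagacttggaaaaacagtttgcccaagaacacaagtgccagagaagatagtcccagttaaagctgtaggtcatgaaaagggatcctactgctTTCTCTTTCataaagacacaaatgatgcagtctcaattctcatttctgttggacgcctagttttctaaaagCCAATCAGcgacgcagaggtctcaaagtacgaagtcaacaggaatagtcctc
H2-T22, chr17:36042743-36042992, minus strand: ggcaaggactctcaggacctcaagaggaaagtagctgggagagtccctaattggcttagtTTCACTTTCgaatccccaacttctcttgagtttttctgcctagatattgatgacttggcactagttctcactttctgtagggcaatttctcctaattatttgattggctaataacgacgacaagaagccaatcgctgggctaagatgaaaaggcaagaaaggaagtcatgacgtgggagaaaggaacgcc
Tap1, chr17:34187306-34187555, plus strand: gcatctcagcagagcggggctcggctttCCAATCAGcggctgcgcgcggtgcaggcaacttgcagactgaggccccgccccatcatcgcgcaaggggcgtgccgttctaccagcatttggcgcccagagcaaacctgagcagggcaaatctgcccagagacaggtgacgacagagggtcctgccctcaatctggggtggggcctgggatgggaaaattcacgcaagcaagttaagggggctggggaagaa
H2-Aa, chr17:34287824-34288073, minus strand: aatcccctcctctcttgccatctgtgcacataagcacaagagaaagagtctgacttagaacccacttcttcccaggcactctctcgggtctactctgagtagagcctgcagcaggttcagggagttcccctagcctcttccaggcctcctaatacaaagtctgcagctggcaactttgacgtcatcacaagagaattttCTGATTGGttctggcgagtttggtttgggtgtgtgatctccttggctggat
B2m, chr2:122147437-122147686, plus strand: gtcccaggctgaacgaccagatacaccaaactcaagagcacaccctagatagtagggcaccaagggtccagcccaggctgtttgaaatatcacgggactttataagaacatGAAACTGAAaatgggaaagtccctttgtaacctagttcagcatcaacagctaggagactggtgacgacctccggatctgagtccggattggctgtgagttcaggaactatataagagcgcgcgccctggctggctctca

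The class I windows of H2-D1 and H2-Q6 held both the NF-kappa-B sequence and the Y box in the reverse direction. In H2-D1 the NF-kappa-B sequence began 171 bases before the start, and the Y box began 53 bases before it. In H2-Q6 the same motifs began 173 and 55 bases before the start. The NF-kappa-B sequence was also found upstream of H2-K1 and H2-Q7. H2-T23 held a response element core beginning 123 bases before its start and a Y box beginning 52 bases before it. H2-T22 and B2m held a response element core and no Y box match, and Tap1 and the class II gene H2-Aa held a Y box and no response element core. The 4 windows with the core were those of B2m, which did not pass the test below, and of H2-T22, H2-T23 and Erap1, whose clusters did. Most of the 18 windows with a Y box belonged to genes below the signal minimum on all arrays, such as the H2-M genes, H2-Oa and H2-Eb2. A match says only that these letters occur, and no binding was measured. Windows for H2-Ab1, Tap2, H2-T24 and Nlrc5 were not used here.

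At least 1 of the 18 arrays reached a signal of 100, the minimum of the study's methods, for 23 of the 46 representative clusters. The other 23 lay between 22.2 and 91.1 on every array. Among them was Ciita, between 47.5 and 55.3. Cd74 lay between 44.7 and 89.8, and 11 clusters of H2-M genes other than H2-M3 between 22.2 and 66.2. The class II genes H2-DMa, H2-Eb2, H2-Oa, H2-Ob and H2-Ea-ps were also below the minimum throughout. No statement on genotype is made for these 23 clusters. Signals of different clusters depend on their probes and are not set against each other here. In a sorted population, fewer cells that carry a transcript and less transcript per cell cannot be told apart.

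Several checks of the samples bear on the results. Cd2ap itself, read as a check of the labels, was not called in any comparison, with log2 fold changes of 0.18 in endothelium, -0.23 in podocytes and -0.31 in mesangial cells. Directions therefore rest on the labels. Ddx3y, a gene of the Y chromosome, was at 695 and 772 in endothelial mutant arrays A and B and between 30.7 and 33.0 in mutant array C and the wild type arrays, so sex differs in part with genotype in endothelium. Mesangial control arrays B and C, podocyte mutant array B and podocyte wild type array A also showed Ddx3y. Mesangial control array C carried signal of other glomerular cells, with 935 for the endothelial gene Kdr against 77.6 and 81.1 in arrays A and B, and with a summed signal of 8 podocyte markers of 3688 against 858 and 1029. The medians of the 18 arrays lay between 62.8 and 71.6.

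In endothelium 8 of the antigen presentation clusters rose in the mutant and none fell. Of the 46 representative clusters, 21 had a signal of at least 100 in 1 or more of the 6 arrays and were tested with limma, and the 8 had an adjusted p under 0.05. The other 25 were not tested. Among all 11330 clusters tested, 1.21% rose by that criterion. By the thresholds of the methods, which ask for a fold change above 1.5 at an unadjusted p below 0.05 and are called the screen from here on, 12 of the 21 were higher and none lower, against 2.96% of all clusters that were higher. The arrays of the genotypes did not overlap for 14 clusters that were higher and 1 that was lower, against 17.7% and 7.34% of all clusters. The median log2 fold change was 0.65 over the 21 members and 0.07 over all clusters tested. Of the 12, the clusters of H2-Ab1, H2-Aa and H2-gs10 with H2-Q5 had every wild type array below 100, H2-Ab1 being also among the 8, so these 3 entered the test through mutant arrays only. With a signal of 100 asked of at least 1 array of each genotype, which was added after seeing the data, 18 members were tested and 9 passed the screen as higher, against 2.54% of all clusters, with a median of 0.47. There 8 had an adjusted p under 0.05, against 1.48%, H2-Ab1 being left out and H2-K1 joining at 0.0484. Without that condition the 8 were H2-Ab1, Tap1, Tap2, Erap1, H2-T24, H2-T23 and the clusters shared by H2-T10, H2-T22 and H2-T9 and by H2-Q6, H2-Q7 and H2-Q8.

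H2-Ab1 had the largest log2 fold change among the members tested, from wild type signals below the minimum. It encodes the beta chain of the I-A molecule (chr17:34263227-34269418, GRCm38.p6) and had signals of 336, 519 and 367 in mutant endothelium and of 97.1, 90.9 and 87.8 in wild type endothelium. The lowest mutant array lay far above the highest wild type array. The group means were 407 ± 97.6 (SD, n = 3) and 91.9 ± 4.70 (SD, n = 3), the fold change was 4.36, the log2 fold change 2.12 ± 0.16 (SE) and the adjusted p 0.00173. H2-Aa, the alpha chain that pairs with it, had signals of 121, 271 and 141 in the mutant and of 71.3, 49.5 and 54.9 in wild type. The arrays of H2-Aa did not overlap, but the adjusted p was 0.0524, with a log2 fold change of 1.53 ± 0.29 (SE). The wild type signals of both genes were all below 100, so both entered the test only through their mutant arrays, and their fold changes rest on a baseline under the minimum. H2-Eb1, the beta chain of I-E, lay between 69.8 and 96.2 on the 6 arrays and was not tested. Cd74, whose product accompanies every class II molecule, was below the minimum as well, at 59.0, 59.9 and 64.6 in the mutant and at 45.9, 46.9 and 50.7 in wild type.

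**Figure D1:**
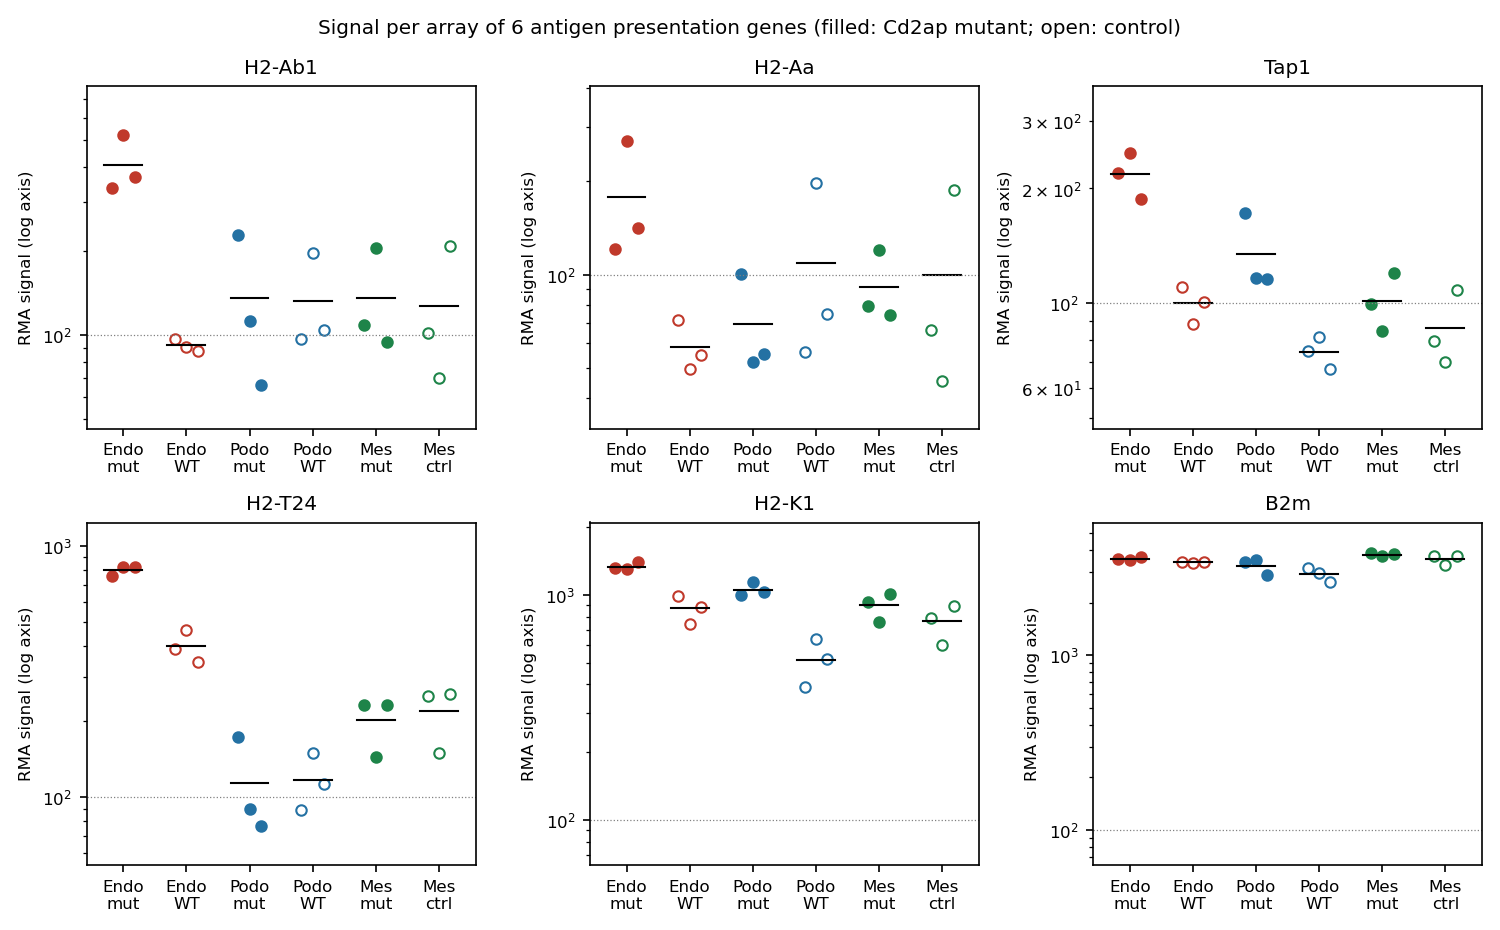
Deposited RMA signal on a log axis (no unit) of H2-Ab1, H2-Aa, Tap1, H2-T24, H2-K1 and B2m on each of 18 arrays, filled points for Cd2ap mutant and open points for control cells, with a black line at the group mean and a dotted line at 100. H2-Ab1 lies between 336 and 519 in mutant endothelium and between 87.8 and 97.1 in wild type endothelium, while B2m lies between 2621 and 3845 on all arrays.

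The transporter of antigenic peptides rose with both its subunits. Tap1 had signals of 220, 248 and 188 in mutant endothelium and of 110, 88.4 and 101 in wild type endothelium, with a log2 fold change of 1.13 ± 0.13 (SE) and an adjusted p of 0.00834. Tap2 had 206, 252 and 184 in the mutant and 123, 128 and 128 in wild type, with a log2 fold change of 0.75 ± 0.12 (SE) and an adjusted p of 0.0320. For both subunits the lowest mutant array lay above the highest wild type array. Erap1, the aminopeptidase that trims peptides to the length class I can hold (chr13:74639573-74693205), had 255, 301 and 263 against 179, 180 and 146, with a log2 fold change of 0.70 ± 0.12 (SE) and an adjusted p of 0.0341. Tapbp passed the screen at a log2 fold change of 0.65 ± 0.18 (SE), with 221, 215 and 187 against 168, 137 and 101, but its adjusted p was 0.137. Of these 4 genes, 3 thus rose by the adjusted criterion.

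Of the class I heavy chain clusters, some rose and others did not pass the adjusted test. The non-classical H2-T24 had signals of 761, 827 and 825 in the mutant and of 390, 464 and 345 in wild type, a log2 fold change of 1.02 ± 0.12 (SE) with an adjusted p of 0.0091. H2-T23, which encodes Qa-1, the ligand of the NKG2 receptors of natural killer cells, had 210, 288 and 274 against 147, 124 and 150, with a log2 fold change of 0.87 ± 0.14 (SE) and an adjusted p of 0.0314. The cluster shared by H2-T10, H2-T22 and H2-T9 had 274, 330 and 324 against 57.3, 92.8 and 149, with a log2 fold change of 1.74 ± 0.30 (SE) and an adjusted p of 0.040. On the log2 scale its wild type arrays spread more widely than those of the other genes that rose. The cluster shared by H2-Q6, H2-Q7 and H2-Q8, genes of the Qa-2 antigen, had group means of 2379 ± 153 (SD, n = 3) and 1387 ± 210 (SD, n = 3), with a log2 fold change of 0.79 ± 0.13 (SE) and an adjusted p of 0.0277. H2-gs10 and H2-Q5 share a cluster that passed the screen at a log2 fold change of 1.06 ± 0.22 (SE), with an adjusted p of 0.0655. Its wild type signals, between 69 and 93.0, were all below 100, so it too entered the test through the mutant arrays only.

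Of the classical heavy chains, H2-K1 (chr17:33996012-34000619) had signals of 1316, 1299 and 1400 in mutant endothelium and of 991, 739 and 883 in wild type endothelium. These did not overlap and passed the screen at a log2 fold change of 0.63 ± 0.12 (SE), while the adjusted p was 0.0529. The cluster of H2-D1 and H2-L had 1310, 1183 and 1314 against 1244, 878 and 960, with a log2 fold change of 0.32 ± 0.14 (SE) and an adjusted p of 0.271, and its arrays overlapped. B2m, the light chain that all class I molecules share (chr2:122147687-122153082), had group means of 3585 ± 87.6 (SD, n = 3) and 3410 ± 8.13 (SD, n = 3), a log2 fold change of 0.07 ± 0.08 (SE) and an adjusted p of 0.657. Its arrays did not overlap, but the difference was small. H2-M3, which shows N-formylated peptides, had a log2 fold change of -0.10 ± 0.12 (SE) and Cd1d1, which shows lipids to NKT cells, one of 0.14 ± 0.22 (SE). Neither passed the screen, nor did H2-Q1, H2-t9, H2-Ke2 or H2-Ke6.

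**Figure D2:**
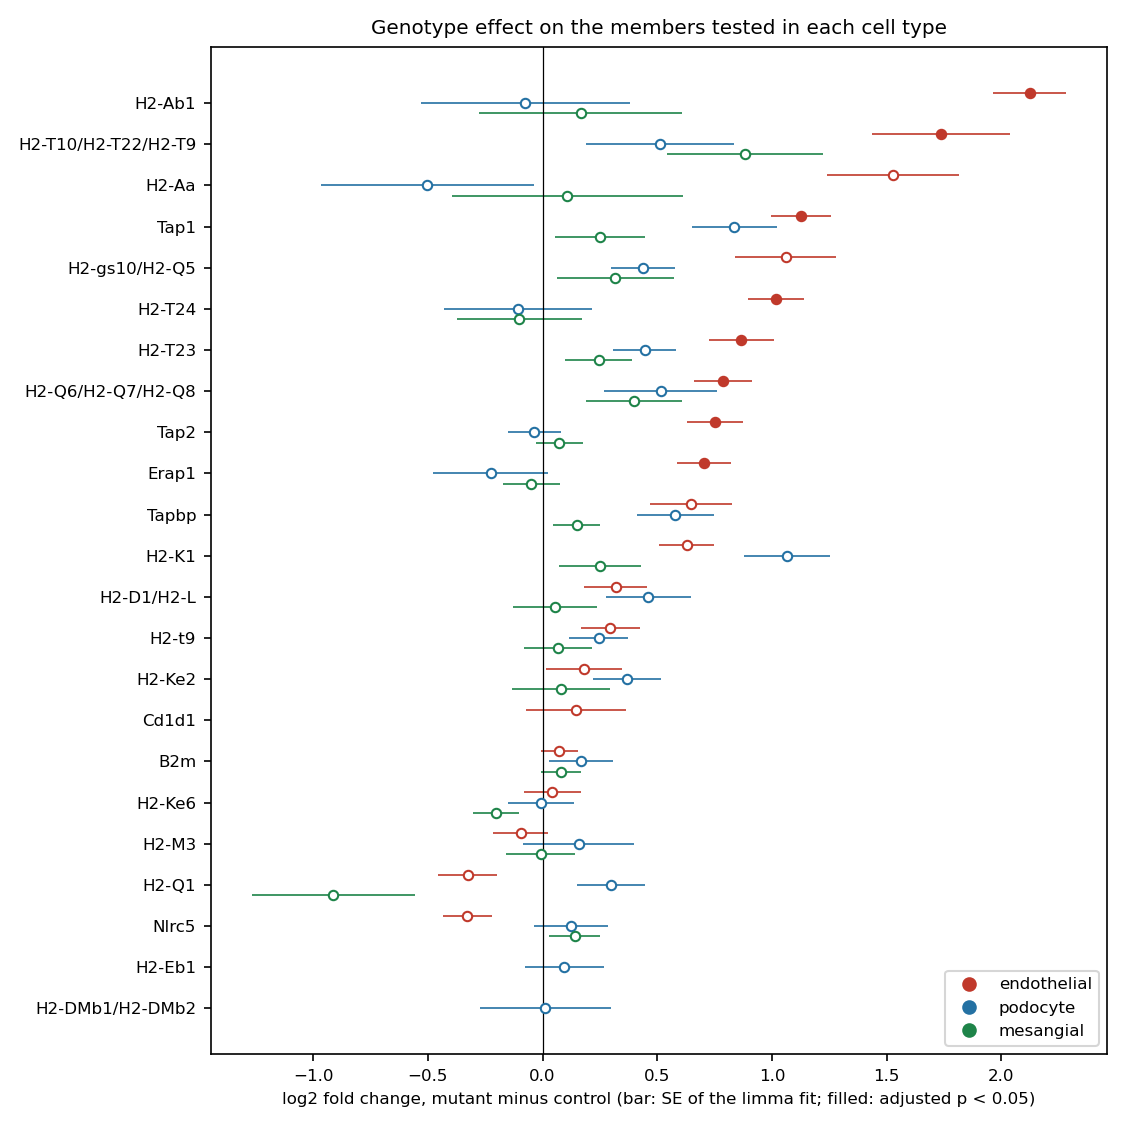
Log2 fold change of signal, mutant minus control, for each representative cluster tested in endothelial cells, podocytes and mesangial cells, with the SE of the limma fit as a bar and a filled point where the adjusted p was under 0.05. Filled points occur for the 8 endothelial clusters named in the text, from 2.12 for H2-Ab1 to 0.70 for Erap1, and for no cluster in podocytes or mesangial cells.

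The endothelial calls rest on 3 arrays a group, and the count of 8 moved with single arrays. It was 3 without mutant array A, 4 without mutant array C, 3 without wild type array B and 3 without wild type array C, while the count past the screen stayed between 11 and 12 over the 6 arrays left out in turn. H2-Ab1 had an adjusted p between 0.00197 and 0.0169 over these. It entered each of these fits through mutant arrays only, so its kept call is no independent support. A fit with sex, read from Ddx3y, as a covariate was added after seeing the data. Since all wild type arrays were from females, the genotype effect in that fit rests on mutant array C against 3 wild type arrays. Its log2 fold changes lay near those without the covariate, at 2.00 for H2-Ab1, 0.92 for Tap1, 1.06 for H2-T24 and 0.97 for H2-T23. Most of the adjusted calls were lost in it. With 1 array on a side, neither a kept nor a lost call decides the part of sex.

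Nlrc5 was read by 19 transcript clusters, and these did not move alike. The cluster with the highest signal had 310, 330 and 367 in mutant endothelium and 381, 436 and 447 in wild type endothelium, lower in the mutant without overlap, at a log2 fold change of -0.33 ± 0.11 (SE) and an adjusted p of 0.185. Of the 12 Nlrc5 clusters tested in endothelium, 4 passed the screen as higher, none as lower, and 1 had an adjusted p under 0.05, against the 2.96% and 1.21% of all clusters given above for the higher direction. These clusters read 1 gene and are not independent. That cluster, 10574149, had 174, 209 and 176 against 87.0, 105 and 107, with a log2 fold change of 0.91 ± 0.12 (SE) and an adjusted p of 0.0138. Cluster 10574163 had 155, 229 and 133 against 92.4, 80.7 and 95.1, with a log2 fold change of 0.91 ± 0.19 (SE) and an adjusted p of 0.0709. Both 10574163 and 10574098, which are 2 of the 4 past the screen, had every wild type array below 100 and entered the test through mutant arrays only. The table does not pair these clusters with exons, so which transcripts of Nlrc5 (chr8:94434335-94527272) they read was not tested. The representative cluster alone would place Nlrc5 among the genes that were lower. In podocytes 10 Nlrc5 clusters were tested, with log2 fold changes from 0.07 to 0.63. In mesangial cells 9 were tested, from -0.19 to 0.59, and cluster 10574163 was past the screen in both, where its control arrays were also all below 100. Ciita, the class II counterpart, stayed below the minimum, between 47.5 and 50.9 in mutant and between 49.7 and 54.8 in wild type endothelium.

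**Figure D3:**
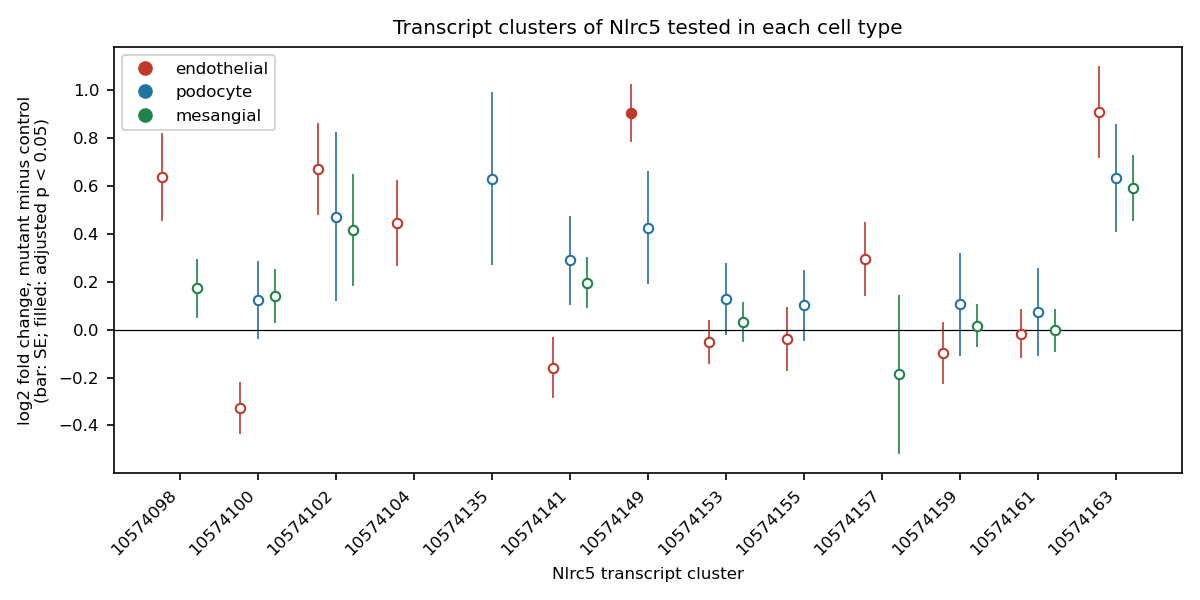
Log2 fold change of signal, mutant minus control, of each Nlrc5 transcript cluster tested in endothelial cells, podocytes or mesangial cells, with the SE as a bar and a filled point where the adjusted p was under 0.05. In endothelium the clusters span from -0.33 for 10574100, the cluster with the highest signal, to 0.91 for 10574149 and 10574163.

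Other genes of the pathway were read from lists that hold no member. Of all clusters tested in endothelium, 1.21% rose and 2.96% passed the screen as higher. Of 10 genes of peptide supply and loading, all tested in endothelium, 1 rose and 2 passed the screen. Psmb8, a catalytic subunit of the immunoproteasome encoded beside the Tap genes, had 575, 661 and 604 in the mutant and 268, 220 and 197 in wild type, a log2 fold change of 1.44 ± 0.13 (SE) with an adjusted p of 0.00325. Psmb9, the neighbour of Tap1, had a log2 fold change of 0.91 ± 0.17 (SE) and an adjusted p of 0.0518. The general chaperones Calr, Canx and Pdia3 had log2 fold changes of -0.25, -0.06 and -0.11. Among the transcription factors of these genes, Irf1 passed the screen at a log2 fold change of 0.60 ± 0.14 (SE) with an adjusted p of 0.0923. The NF-Y subunits Nfya, Nfyb and Nfyc, which bind the Y box, had log2 fold changes of -0.08, 0.35 and 0.01. None of 6 interferon receptor and Jak genes passed the screen, with log2 fold changes between 0.09 and 0.30. Of 9 class II pathway genes, 5 were tested and Ctss, the cathepsin that frees class II from the invariant chain, passed the screen at 0.90 ± 0.30 (SE) with an adjusted p of 0.187. None of the 3 class I like genes outside H2 that were tested passed it. In podocytes no gene of these lists had an adjusted p under 0.05, while the gamma-interferon inducible reductase Ifi30 at 0.71 ± 0.22 (SE) and the interferon gamma receptor chain Ifngr1 at -0.94 ± 0.12 (SE) passed the screen. Of all clusters tested there, 1.26% passed it as higher. With the signal minimum asked of both genotypes, 4.26% passed it as lower. In mesangial cells Ifngr1 rose by 0.60 ± 0.11 (SE) with an adjusted p of 0.0404, Nfya fell by 0.44 ± 0.08 (SE) with an adjusted p of 0.0418, and Lgmn passed the screen at 0.72 ± 0.29 (SE). Irf8 also passed it, but reached 100 on mutant array B alone, the array with the most leukocyte signal. Among all clusters tested in mesangial cells, 1.25% rose, 1.68% fell and 2.08% passed the screen as higher.

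Most members lie in the H2 region of chromosome 17, chr17:33974659-37483554 in GRCm38.p6, and Cd2ap lies on the same chromosome at chr17:42748887-42876707, 5.27 Mb further. The strain name gives the Cd2ap allele a 129X1 origin, and the H2 alleles of these mice were not typed. An H2 allele linked to the mutation and the mutation itself cannot be told apart in this design. Genes of the same region that are no members were read beside the members. In endothelium 5 of 47 such clusters passed the screen, 10.6%, all higher, against 3.46% of clusters on other chromosomes. In podocytes it was 1 of 54, or 1.85%, against 6.46%, and in mesangial cells 2 of 50, or 4.00%, against 5.65%. Psmb8 and Psmb9, the pathway genes named above, lie in this region and are among the 5 that passed in endothelium. That share therefore counts the pathway in part. Erap1, B2m and Nlrc5 lie on other chromosomes.

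Class II genes are also expressed by leukocytes, so their markers were read on the same arrays. Of 25 leukocyte markers 23 were on the array and 6 were tested in endothelium, of which none passed the screen. Tyrobp had a log2 fold change of 0.78, and the median of the 6 was 0.51. Mpeg1, Lyz2, Ptprc and Cd68, 4 of the 6, had every wild type array below 100 and entered the test through mutant arrays only. Their direction, and with it that median, can therefore not be read as a change in leukocyte signal. The summed signal of the 23 lay between 1324 and 2036 in the mutant and between 1248 and 1495 in wild type endothelium. Mutant array A carried the most, with Tyrobp at 475 and Ptprc at 168, against 108 to 201 and 69.5 to 97.7 in wild type. Mutant array C had Tyrobp at 151, Lyz2 at 54.1 and Ptprc at 76.3, against wild type ranges of 108 to 201, 53.0 to 93.4 and 69.5 to 97.7, with 367 for H2-Ab1 and 141 for H2-Aa. The B cell genes Cd79a and Ms4a1 lay below 33.0 on all 6 arrays. Without mutant array A the log2 fold change of H2-Ab1 was 2.25. In the other cell types the arrays with the most leukocyte signal were those with the most class II signal. Mesangial mutant array B had Tyrobp at 1261 and H2-Ab1 at 205, and mesangial control array C had 523 and 208, against 70.4 to 109 for H2-Ab1 on the remaining mesangial arrays. Podocyte mutant array A and podocyte wild type array B had Tyrobp at 274 and 302 and H2-Ab1 at 229 and 197, against 66.2 to 112 for H2-Ab1 on the remaining podocyte arrays. The part of leukocyte RNA in the class II values was not tested. Of 8 listed mesangial markers, 3 were tested in endothelium. Serpine2 at 1.27 ± 0.32 (SE) and Mcam at 0.61 ± 0.15 (SE) passed the screen as higher. Meis1, the third, was at 0.04, and the other 5 of the 8 markers were below 100 on all 6 arrays. The 8 summed to between 1339 and 1717 in the mutant and between 955 and 1188 in wild type, a difference carried by Serpine2 and Mcam. Their part in the endothelial values was not tested either.

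**Figure D4:**
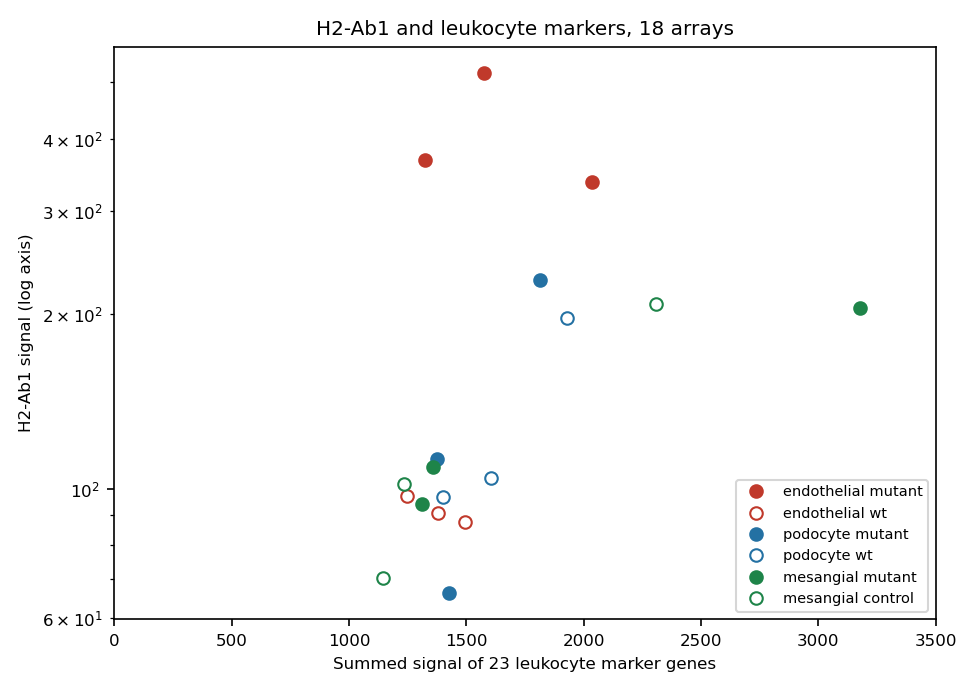
Signal of H2-Ab1 (log axis, no unit) against the summed signal of 23 leukocyte marker genes on each of 18 arrays, filled points for mutant and open points for control cells. The 3 mutant endothelial arrays lie at 336 to 519 with summed marker signals of 1324 to 2036, while mesangial mutant array B, with a sum of 3177, lies at 205.

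In podocytes no member reached the adjusted threshold, and the log2 fold changes were positive for 16 members and negative for 6. Of 22 clusters tested with limma, none had an adjusted p under 0.05, 7 had an unadjusted p under 0.05, and 2 passed the screen, both higher. Among all 12113 clusters, 0.0495% rose by the adjusted criterion and 1.26% passed the screen as higher. The arrays did not overlap for 9 members, all higher, against 6.97% of all clusters, and the median log2 fold change was 0.20 over the members and -0.04 over all clusters. H2-K1 showed the largest difference, with 995, 1139 and 1036 in mutant and 391, 635 and 517 in wild type podocytes. Its log2 fold change was 1.06 ± 0.19 (SE), a 2.09-fold difference, and its adjusted p 0.135. Tap1 had 172, 117 and 116 against 74.7, 81.6 and 67, with a log2 fold change of 0.84 ± 0.19 (SE) and an adjusted p of 0.154. For both genes the genotypes did not overlap, but the wild type signals of Tap1 were all below 100, so it entered the test only through its mutant arrays. Tapbp at 0.58 ± 0.17 (SE), H2-T23 at 0.44 ± 0.14 (SE) and the cluster of H2-gs10 and H2-Q5 at 0.44 ± 0.14 (SE) were also higher without overlap, with adjusted p values of 0.213, 0.229 and 0.238. The wild type signals of the cluster of H2-gs10 and H2-Q5 were again all below 100. With the minimum asked of both genotypes 19 members were tested, and H2-K1 was the 1 member past the screen, against 0.897% of all clusters.

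The class II genes had no difference beyond the spread between podocyte arrays. H2-Ab1 had 229, 112 and 66.2 in mutant and 97.0, 197 and 104 in wild type podocytes, with a log2 fold change of -0.07 ± 0.46 (SE). H2-Aa had 101, 52.4 and 55.5 against 56.4, 197 and 74.7, at -0.50 ± 0.47 (SE). The arrays of the genotypes overlapped for both genes. The cluster shared by the H2-DM beta chain genes, H2-DMb1 and H2-DMb2, lay between 76.9 and 156 in podocytes, with a log2 fold change of 0.01 ± 0.29 (SE). Tap2 and Erap1, which rose in endothelium, had log2 fold changes of -0.04 ± 0.12 (SE) and -0.23 ± 0.25 (SE). The podocyte arrays also differed in endothelial marker signal. All 8 endothelial markers passed the screen as lower in the mutant, with sums between 722 and 2712 against 4423 to 5943 in wild type. The mesangial markers Pdgfrb, Itga8 and Meis1 also passed it as lower, at -1.09, -1.55 and -0.60, and 1 of 8 leukocyte markers tested as higher, Csf1r at 0.62 from wild type arrays all below 100, while Tyrobp, Lyz2 and Ptprc were at -0.82, -0.77 and -0.52 and the median of the 8 at -0.12. The part of these differences in the podocyte values was not tested. Without podocyte wild type array A, the lowest for H2-K1, its log2 fold change was 0.88 with an adjusted p of 0.442. When all 18 arrays shared 1 fit, H2-K1 had an adjusted p of 0.00376 and Tap1 one of 0.0156 in podocytes.

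In mesangial cells few members moved. Of 20 clusters tested with limma none had an adjusted p under 0.05 and 2 had an unadjusted p under 0.05. Among all 11457 clusters 1.25% rose and 1.68% fell by the adjusted criterion. The screen took 1 member as higher and 1 as lower, against 2.08% and 3.12% of all clusters. The median log2 fold change was 0.09 over the members and -0.02 over all clusters. The cluster of H2-T10, H2-T22 and H2-T9 had 275, 195 and 423 in mutant and 176, 104 and 198 in control cells, with a log2 fold change of 0.88 ± 0.34 (SE) and an adjusted p of 0.20. Its arrays overlapped. H2-Q1 had 111, 95.1 and 104 in the mutant and 282, 249 and 105 in the controls, with a log2 fold change of -0.91 ± 0.36 (SE) and an adjusted p of 0.205. Control array C, the array with podocyte and endothelial signal, thus stood with the mutants, and without it H2-Q1 fell by 1.36 on the log2 scale with an adjusted p of 0.00496. The single member without overlap between the genotypes was H2-Ke6, lower in the mutant at -0.20, against 16.3% of all clusters. H2-Ab1, with 109, 205 and 94.2 against 102, 70.4 and 208, had a log2 fold change of 0.17 ± 0.44 (SE), and H2-K1, with 935, 756 and 1014 against 792, 598 and 898, one of 0.25 ± 0.18 (SE). The count past the screen was 0 without mutant array A or C or control array A or B, 1 without mutant array B and 3 without control array C, so it rested on single arrays. Cell type markers also differed by limma. Of 8 endothelial markers Tek and Ehd3 fell, at -1.19 and -0.98, with adjusted p values of 0.0497 and 0.0121. Of 8 mesangial markers Itga8 and Pdgfrb fell, at -0.59 and -0.58, with adjusted p values of 0.0235 and 0.042. No marker of either list rose. The part of these differences in the mesangial values was not tested.

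The effect of genotype was then compared between cell types as a difference of differences over all 18 arrays. Of 23 members tested, Tap2 was the only one called. Its effect was larger in endothelium than in podocytes by 0.79 ± 0.15 (SE) on the log2 scale, adjusted p 0.0237, and larger than in mesangial cells by 0.68 ± 0.15 (SE), adjusted p 0.0428. Among all 13523 clusters, 1.86% had a larger effect in endothelium than in podocytes and 0.71% a larger effect than in mesangial cells. The difference for H2-Ab1 was larger in size but less certain, at 2.20 ± 0.62 (SE) against podocytes and 1.96 ± 0.62 (SE) against mesangial cells, with adjusted p values of 0.0706 and 0.144. For Tap1 the differences were 0.29 ± 0.27 (SE) and 0.88 ± 0.27 (SE), with adjusted p values of 0.517 and 0.131. H2-K1 had a difference of -0.44 ± 0.25 (SE) between endothelium and podocytes, adjusted p 0.298. Between podocytes and mesangial cells limma called no member, and 3 had an unadjusted p under 0.05. That 8 members rose in endothelium and none in the other cells therefore does not by itself show a difference between cell types. For Tap2 the call was lost with quantile normalization, at adjusted p values of 0.0759 against podocytes and 0.154 against mesangial cells. Without podocyte mutant array A the count against podocytes was 5, without mesangial control array C it was 2, and without endothelial mutant array A, endothelial wild type array B or C, or podocyte wild type array A it was 0. The count against mesangial cells was 0 without any of 13 of the 18 arrays, and 2 without mesangial control array C.

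Some H2 clusters split the arrays of a group rather than the genotypes. In podocytes the H2-Q8 cluster had 82.4 in wild type array A against 506 and 453 in wild type arrays B and C and 600, 478 and 419 in the mutant arrays. The H2-Q6 cluster had 364 in wild type array A against 1689 and 1956 in B and C and 2081, 1587 and 1895 in the mutant. The cluster shared by H2-Q6, H2-Q7 and H2-Q8 had 1411 in array A against 2506 and 2776. The cluster shared by H2-T10, H2-T22 and H2-T9, which rose in endothelium, had 70.1 in array A against 173.6 and 152.5. Its podocyte log2 fold change was 0.51 with array A and 0.11 without it. In the opposite direction, the cluster shared by H2-T10 and H2-T9 had 185 in array A against 81.8 and 62.3 in B and C, and H2-M3 had 153 against 91.9 and 89.2. With array A the log2 fold change of the H2-Q8 cluster was 0.89 and of the H2-Q6 cluster 0.79. Without it they were 0.04 and 0.02, so that array alone carried the difference.

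The H2-Q8 and H2-Q6 clusters also differed in endothelium. The H2-Q8 cluster had 190, 160 and 182 in mutant against 86.7, 75.9 and 67 in wild type endothelium, with a log2 fold change of 1.22 ± 0.12 (SE) and an adjusted p of 0.00454, from wild type signals all below 100. The H2-Q6 cluster had 761, 526 and 765 against 214, 188 and 242, at 1.66 ± 0.17 (SE) and an adjusted p of 0.00461. Mesangial control arrays A and B lay low in both, at 88.1 and 85.8 for H2-Q8 and at 260 and 169 for H2-Q6, while control array C had 170 and 615. The same control arrays A and B were those with high H2-Q1. Such clusters read near-identical genes whose copies differ between H2 haplotypes, and whether the arrays that stand apart came from mice of another haplotype was not tested.

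**Figure D5:**
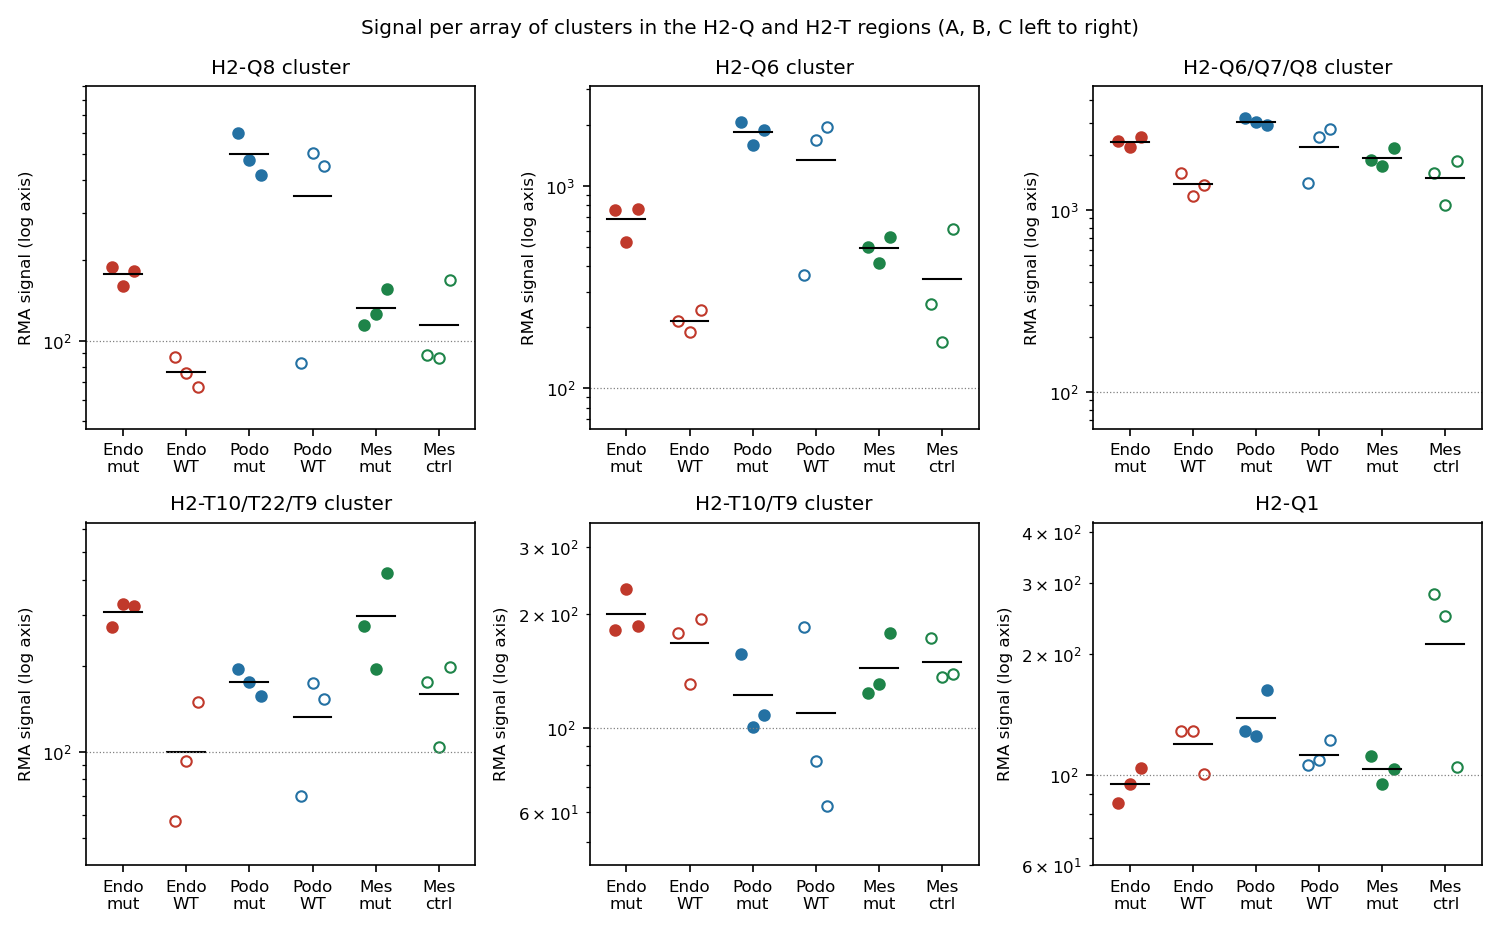
Deposited RMA signal on a log axis (no unit) of 6 clusters of the H2-Q and H2-T genes on each of 18 arrays, in the order A, B and C within a group, filled for mutant and open for control cells, with a black line at the group mean and a dotted line at 100. Podocyte wild type array A lies at 82.4 for the H2-Q8 cluster where the other podocyte arrays lie between 419 and 600, and mesangial control arrays A and B lie at 282 and 249 for H2-Q1.

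Levels in control cells differed between cell types for some members, in shares near those of all clusters tested. Between wild type endothelium and wild type podocytes, 5 of 23 members were higher in endothelium and 3 in podocytes, against 18.6% and 14.7% of all clusters. Endothelium had more H2-T24, at 399 ± 60.1 (SD, n = 3) against 117 ± 30.3 (SD, n = 3), a log2 difference of 1.79 ± 0.29 (SE) with an adjusted p of 0.000156. It had more Cd1d1, at 100.1 ± 14.9 (SD, n = 3) against 52.3 ± 2.64 (SD, n = 3), adjusted p 0.000479, but Cd1d1 was below 100 on every podocyte and mesangial array and so entered this test and that against mesangial controls through endothelium only. H2-K1 was higher by 0.78 ± 0.18 (SE), H2-M3 by 0.62 ± 0.20 (SE) and the H2-D1 and H2-L cluster by 0.54 ± 0.18 (SE). Podocytes had more of the H2-DMb1 and H2-DMb2 cluster, at 126 ± 43.1 (SD, n = 3) against 66.9 ± 2.87 (SD, n = 3), adjusted p 0.00481, although podocyte wild type array A had 76.9. That cluster was below 100 on every endothelial and mesangial array, so it entered the tests of levels through podocytes only. They also had more Tapbp, with an endothelial minus podocyte difference of -0.55 ± 0.17 (SE), and more of the H2-Q6, H2-Q7 and H2-Q8 cluster, with one of -0.64 ± 0.22 (SE).

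Against mesangial controls, wild type endothelium was higher in 3 members, H2-T24, Cd1d1 and H2-M3, and lower in none, where 13.3% of all clusters were higher. These are the genes that were also higher in endothelium than in podocytes, with the same endothelial arrays in both comparisons. Wild type podocytes were higher than mesangial controls in 2 members, the H2-DMb1 and H2-DMb2 cluster and Nlrc5, and lower in 4, namely H2-T24, H2-Q1, H2-K1 and B2m, against 9.47% and 13.6% of all clusters. H2-T24 thus had an order of endothelium, mesangial controls and podocytes, with each step beyond the test's threshold. For H2-K1 the order of means was endothelium at 871 ± 126 (SD, n = 3), mesangial controls at 762 ± 152 (SD, n = 3) and podocytes at 514 ± 122 (SD, n = 3), of which endothelium and mesangial controls were not called different. B2m was lower in podocytes than in mesangial controls by 0.30 ± 0.09 (SE) on the log2 scale. H2-Ab1 had no called difference in level between any pair of control cells, at 91.9 ± 4.70, 133 ± 55.5 and 127 ± 72 (SD, n = 3 each) in endothelium, podocytes and mesangial controls. These counts also moved with single arrays. The 8 members between endothelium and podocytes became 4 without podocyte wild type array B, 5 without podocyte wild type array C and 5 without endothelial wild type array C. The 6 between podocytes and mesangial controls became 1 without podocyte wild type array C, 3 without array B, 2 without mesangial control array A, 4 without B and 3 without C, and the 3 between endothelium and mesangial controls lay between 2 and 4.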

How the data were processed

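RNA of the sorted cells went through 1 round of Ribo-SPIA amplification before hybridization to Mouse Gene 1.0 ST arrays of Affymetrix. The authors deposited a linear intensity for each transcript cluster and array, which by the sample records is an RMA value (probe signals corrected for background, quantile normalized and summarized) from Expression Console. Since GeneBASE and Exon arrays stand in the series record instead, the origin of the intensity rests on the file header and the sample records. A second set of 18 columns, centred log2 values, was not used, and the RNA-seq was not analysed here.

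Genotypes were compared within each cell type on log2 intensity by the limma functions lmFit and eBayes (version 3.58.1, R 4.3.3), over clusters that reached a signal of 100 on 1 or more of 6 arrays, with Benjamini-Hochberg adjustment over all of them. Rose and fell refer to an adjusted p under 0.05. The screen is an unadjusted p under 0.05 with a fold change over 1.5, as in the study's methods. Differences between cell types and levels in control cells were contrasts in a fit over 18 arrays. The scripts were tested on simulated data. Precision is set by the number of arrays.

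Members, lists and tests were chosen with earlier results of these data known. Named genes are H2-Ab1, H2-K1, Nlrc5, the non-H2 members, the classical and class II members, and up to 10 members per cell type with the largest difference among those past the screen without overlap. The H2-Q, H2-T and H2-M3 clusters named for single arrays, and H2-t9, H2-Ke2 and H2-Ke6, were chosen after their values were seen. Positions and promoter windows came from RefSeq tables of GRCm38.p6. Alternatives were other signal minimums, 1 fit over 18 arrays, an intensity trend with robust estimation, array weights, subtraction of array medians, quantile normalization, an offset of 50, clusters with 1 symbol only, the median over the clusters of a gene and leaving out each array. Sex as a covariate and a signal minimum in both genotypes were added after seeing the data. Some items of the lists and labels are not reported here.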

Additional observations from a re-analysis of the deposited data

Results flagged for a closer look

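Tap2 was the member whose genotype effect differed between cell types by a test of the difference itself. Its log2 fold change was larger in endothelium than in podocytes by 0.789, with an adjusted p of 0.0237, and larger than in mesangial cells by 0.678, with an adjusted p of 0.0428, in limma's fit over 18 arrays. Mutant endothelium had Tap2 signals of 206, 252 and 184, and the other 15 arrays lay between 123 and 155. Over the arrays left out in turn the adjusted p lay between 0.0106 and 0.0650 against podocytes and between 0.0230 and 0.111 against mesangial cells, and with quantile normalization it was 0.0759 and 0.154. Groups of 3 arrays are too small for a test of single outlying arrays.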

How the results depend on the processing

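In endothelium the count of members with an adjusted p under 0.05, 8, was 3 without a signal minimum, 4 with quantile normalization, 5 with clusters of 1 symbol only, where 15 were tested, and 3 to 8 over the arrays left out. Most of these calls were lost with sex as a covariate, a fit in which the genotype effect rests on 1 mutant array. The median log2 fold change of the members was 0.097 without a signal minimum, where all 46 clusters enter, 0.474 with the signal minimum asked of both genotypes, which leaves out the 3 members that entered through mutant arrays only, and 0.606 to 0.732 over the arrays left out. The count past the screen, 12, was 9 to 12 over the other alternatives that kept all members, and 8 with clusters of 1 symbol only. In podocytes the adjusted count was 3 with all 18 arrays in 1 fit and 0 over the arrays left out, the count past the screen was 1 with log2 of the signal plus 50, 1 with the signal minimum asked of both genotypes and 2 to 3 over the arrays left out, and the median was 0.187 to 0.298. In mesangial cells the count past the screen, 2, was 1 with clusters of 1 symbol only, and 0 to 3 over the arrays left out. The adjusted count was 0 to 1 over these, and the median 0.046 to 0.165. The mesangial fit with sex as a covariate rests on control array A against 3 mutant arrays, so its count is not given. The count of members whose effect differed between endothelium and podocytes was 0 with quantile normalization, 3 with array medians subtracted and 0 to 5 over the arrays left out. Against mesangial cells it was 0 with quantile normalization and 0 to 2 over the arrays left out, and between podocytes and mesangial cells 0 to 1. The counts of level differences in control cells were 4 to 9 for endothelium against podocytes, 2 to 4 for endothelium against mesangial controls and 1 to 6 for podocytes against mesangial controls over the arrays left out. No representative or Nlrc5 cluster past the screen, and no difference between cell types in the effect on H2-Ab1 or Tap2, changed direction under any of these. Where the arrays of the genotypes did not overlap, leaving out an array could not change the direction. Among the clusters past the screen only H2-Q1 and the cluster of H2-T10, H2-T22 and H2-T9, both in mesangial cells, overlapped. The direction of fold changes that did not pass the screen was not followed. The cause of the other movements was not tested. No paired analysis was possible because the replicate numbers of the labels are not shared between groups. Array medians subtracted moved the median of all clusters in endothelium from 0.07 to 0.14. Sex differs in part with genotype in endothelium and in mesangial cells, and 3 arrays a group limit every call. Members below a signal of 100 on all arrays were compared only in the alternative without a signal minimum.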
